A study of Mus musculus with 2 samples.

Results

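T and NK lymphocytes were described in a single-cell RNA-seq dataset of mouse mandibular first molars and the tissue around them. A cell counted as a T or NK lymphocyte when it had at least 200 detected genes, at most 20% of its unique molecular identifiers (UMIs, each standing for 1 captured RNA molecule) from mitochondrial genes, at least 2 UMIs summed over Cd3e, Cd3d, Cd3g, Trac and Nkg7, at most 1 UMI of Cd79a plus Cd79b, and at most 2% of its UMIs from Col1a1. The rule found 245 cells among 17780 cells that passed the gene and mitochondrial limits, out of 19015 deposited cells. Of these, 127 came from the clodronate library and 118 from the vehicle library.

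The mice were C57BL/6J, and both groups received liposomes intraperitoneally at postnatal day (PN) 3.5, 6.5 and 9.5 and a last time 3 days before the tissue was taken. Lipo-Clo mice received liposomes loaded with clodronate, which is toxic to phagocytes that engulf it, at 40 μg/g of body weight, and Lipo-PBS mice received an equal volume of vehicle liposomes on the same days. Tissue was taken at PN15.5 in both groups, digested to single cells and captured by the droplet method. Clodronate liposomes act on phagocytic cells in general and throughout the body, not on cells of the molar alone. There was 1 library per condition, both labelled as batch 1, and the number of mice behind each library was not given in the sources used here. No p-value can therefore be given for any difference between Lipo-Clo and Lipo-PBS. All intervals are exact 95% intervals that cover counting error only, and differences between animals cannot be told apart from the effect of treatment.

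T cells recognise antigen through a receptor made of either an alpha and a beta chain or a gamma and a delta chain, and both kinds of receptor reach the cell surface only with the CD3 proteins, which Cd3e, Cd3d and Cd3g encode. NK cells lack that receptor and kill target cells with granules that hold perforin and granzymes, and Nkg7 encodes a granule protein of cytotoxic cells. Gamma-delta T cells that make IL-17A settle early in life in barrier tissues such as skin, tongue and the gingiva around the teeth, where they are a main source of this neutrophil-recruiting cytokine.

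Cells that met the rule were rare in both libraries and their share of kept cells was similar, although the kinds of cell behind that share differed, as described below. They made up 127 of the 8886 kept Lipo-Clo cells (1.43%, 1.19 to 1.70) and 118 of the 8894 kept Lipo-PBS cells (1.33%, 1.10 to 1.59). The log2 ratio of the shares, Lipo-Clo over Lipo-PBS, was 0.11 with an interval of −0.27 to 0.48, which includes 0. The Lipo-Clo library held 31053404 UMIs over its deposited cells and the Lipo-PBS library 30537834. The members themselves differed in depth, with a median of 3994 UMIs per Lipo-Clo cell (554 to 28758) and 2583 per Lipo-PBS cell (569 to 15685). Mitochondrial genes took a median of 0.183% of a member's UMIs in Lipo-Clo and 1.34% in Lipo-PBS, and the other kept cells of the libraries were apart in the same direction, at 0.291% and 1.68%. Between the libraries 30 cell barcodes were shared, none of them among the members.

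The cells were chosen by the UMIs of the 5 rule markers, so their levels are a description and carry no test. Cd3g was the CD3 gene detected most often, in 69 of 127 members in Lipo-Clo and 92 of 118 in Lipo-PBS, ahead of Cd3d in 55 and 65 and Cd3e in 32 and 42. Trac, the constant segment of the alpha chain, was found in 19 and 25 members, a minority in both. Nkg7 was found in 84 members in Lipo-Clo and 64 in Lipo-PBS. Just inside the limit of the rule, 23 members in Lipo-Clo and 24 in Lipo-PBS had exactly 2 marker UMIs, while 94 and 87 further cells with 1 marker UMI lay just outside it. The Cd79 limit removed 4 and 6 cells and the Col1a1 limit 13 and 33.

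The label fitted the members unevenly, because Nkg7 also admitted cells with myeloid genes. Nkg7 was the only rule marker in 48 Lipo-Clo members and 16 Lipo-PBS members. Of these, 42 of 48 and 9 of 16 also had UMIs of Mpo, Elane, Prtn3, Ctsg or Ms4a3, which are genes of granulocyte and monocyte progenitors and their primary granules, whereas 7 and 4 had a gene that marks NK cells. Cd3d admitted such cells too, for example a Lipo-Clo member with 2 UMIs of Cd3d, 0 of Nkg7 and 524 of S100a8. Neutrophils that were not members (S100a8 plus S100a9 over 5% of UMIs) had Cd3d in 3.84% of 599 Lipo-Clo and 1.97% of 203 Lipo-PBS cells. When every member was put in 1 of 8 exclusive gates, the cells with Nkg7 but no CD3, NK gene or Trac were 41 with clodronate and 12 with vehicle. These cells were deep, with median UMI counts of 13316 and 6414. Elane, the gene of neutrophil elastase, was found in 38 of the 41 and 8 of the 12, and Trdc, which the gate did not use, was at 0 in all of them. They are called by their rule, cells with Nkg7 alone, and are given no cell type name.

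The gate with Nkg7 alone was the only exclusive gate whose ratio between the libraries had an interval without 0. Its share was 0.461% (0.331 to 0.625) of the kept Lipo-Clo cells and 0.135% (0.0697 to 0.236) of the kept Lipo-PBS cells, for a log2 ratio of 1.77 (0.82 to 2.84). Cells with at least 5 UMIs of Mpo, Elane, Prtn3 and Ctsg together showed a difference of like size over all kept cells, 143 against 40, with a log2 ratio of 1.84 (1.32 to 2.38). Members among them numbered 45 with clodronate and 11 with vehicle. The neutrophil list of 8 genes took 8.69% of the UMIs of all members in Lipo-Clo and 2.41% in Lipo-PBS, with all 8 genes detected in both and S100a9 the most abundant at 35423 and 4231 UMIs. The progenitor list of 6 genes, all detected in both libraries, took 2.24% and 0.613%. B cell genes took 0.00916% and 0.0353% of member UMIs, and Ms4a1, the gene of the B cell antigen CD20, was at 0 in both.

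**Figure D1:**
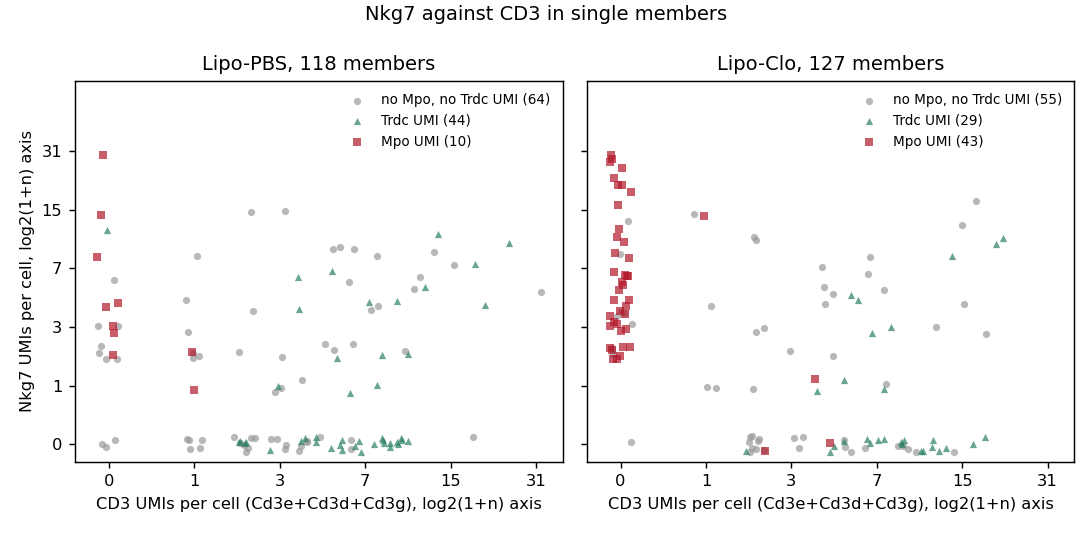
Each point is 1 member, placed by its CD3 UMIs (Cd3e, Cd3d and Cd3g summed, x axis) and its Nkg7 UMIs (y axis), both on log2(1+n) axes with a little scatter added, in a panel for each library; colour marks cells with Mpo, with Trdc and no Mpo, or with neither. The cells with Mpo, 43 in the Lipo-Clo panel and 10 in the Lipo-PBS panel, stand mostly at 0 CD3 UMIs.

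Cells with a CD3 transcript were slightly fewer in Lipo-Clo, by an amount within the counting error. There were 78 of them with clodronate (0.878% of kept cells, 0.694 to 1.09) and 99 with vehicle (1.11%, 0.906 to 1.35), and the log2 ratio was −0.34 (−0.79 to 0.10). They were 61.4% of the Lipo-Clo members (52.4 to 69.9) and 83.9% of the Lipo-PBS members. Without CD3 the direction was the other way, 49 members against 19, and a log2 ratio of 1.37 (0.58 to 2.22). The similar overall share of members was thus the sum of a lower count of CD3 cells and a higher count of cells without CD3. For every member thinned to 1000 UMIs, so that depth was equal, expected shares were computed from the chance that a cell keeps a UMI. CD3 was expected in 48.2% of 117 members in Lipo-Clo and 64.9% of 106 in Lipo-PBS, 10 and 12 shallower members being left out. Shares of members after thinning are expected values throughout, while thinned gene counts and ratios come from a random draw. Other lineages were also seen in CD3 cells, in which erythroid genes took 5.80% of UMIs in Lipo-Clo and 10.96% with vehicle, neutrophil genes 2.62% and 0.393%, mesenchymal genes 0.648% and 1.04%, and epithelial genes 0.0528% and 0.350%. Their part in the differences below was not tested, beyond repeating the comparison in cells where those genes were low.

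Within the CD3 gates, Cd4 and Cd8 transcripts were scarce and Trdc, the constant segment of the delta chain, was common. The gate with CD3, Trdc and neither co-receptor held 31 Lipo-Clo and 40 Lipo-PBS cells, 0.349% and 0.450% of kept cells, with a log2 ratio of −0.37 (−1.09 to 0.35). Cells with CD3 and none of Cd4, Cd8a, Cd8b1 and Trdc numbered 44 and 47, a log2 ratio of −0.09 (−0.72 to 0.53). The CD3 gate with Cd4 alone held 1 and 4 cells and the gate with Cd8a or Cd8b1 alone 2 and 8, too few to compare at this depth, and no CD3 cell had UMIs of both, at a depth that cannot show whether a cell expressed both. The gate with an NK gene and no CD3 held 7 and 4 cells, a log2 ratio of 0.81 (−1.17 to 3.03), and 1 and 3 cells had Trac without CD3. Foxp3, the transcription factor of regulatory T cells, was seen as 2 UMIs in Lipo-Clo and at 0 in Lipo-PBS. Rag1, Rag2, Dntt and Ptcra, which mark developing thymocytes, were at 0 in all 245 members.

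**Figure D2:**
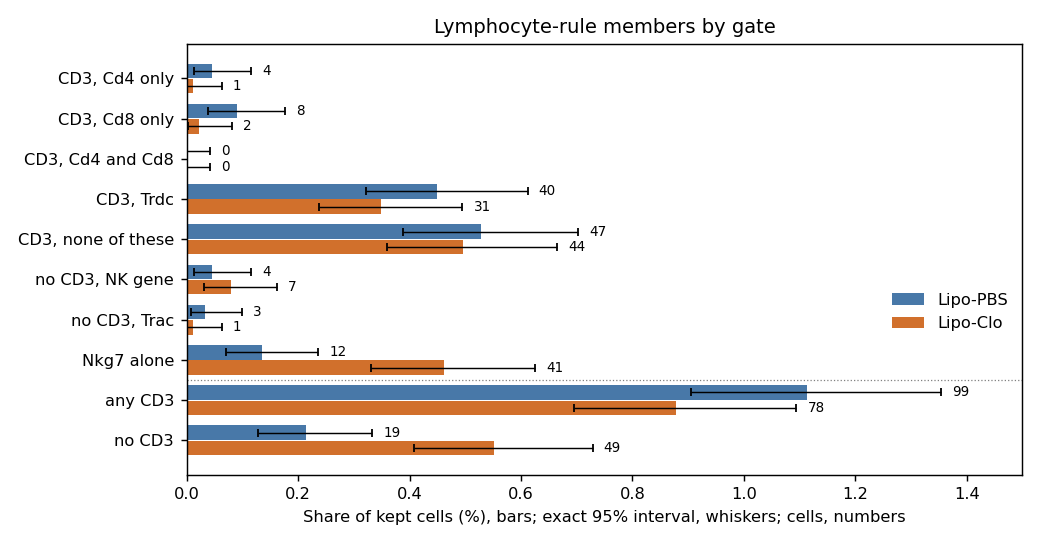
Bars give the share of kept cells (percent) in each of the 8 exclusive gates and, under the dotted line, in all CD3 and all other members; whiskers are exact 95% intervals and the numbers are cells. The gate with Nkg7 alone stands apart between the libraries (0.461% and 0.135%), while the intervals of the CD3 gate with Trdc (0.349% and 0.450%) overlap.

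The few variable receptor segments read in the members were mostly those of gamma-delta T cells, while constant segments of both kinds of receptor were common. Variable segments of the delta chain gave 26 UMIs in Lipo-Clo and 73 in Lipo-PBS and those of the gamma chain 28 and 49, against 2 and 3 UMIs for alpha and 2 and 5 for beta variable segments. Among constant segments, Trdc gave 119 UMIs in Lipo-Clo and 110 in Lipo-PBS and Trgc1 90 and 98, beside 128 and 158 for Trbc2, 75 and 52 for Trbc1 and 36 and 37 for Trac. Trbc2 was in 54 members in Lipo-Clo and 66 in Lipo-PBS, and it was found in 22 of 31 and 31 of 43 CD3 cells that carried Trdc. A constant beta segment alone does not show which receptor a cell made.

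Clustering the 245 members gave 8 groups, 4 of them led by lymphocyte genes and 4 by genes of other lineages. The clusters were built from the same genes that describe them, so their leading genes are a description. Cluster 1 was gamma-delta T-like, with 21 cells from Lipo-Clo and 22 from Lipo-PBS, and all 10 listed gamma-delta markers were found in at least 10% of its cells and at 2 times or more their median level over the clusters. It was led by Trdc (2061 CPM, UMIs scaled by the total UMIs of the cells counted, in 95.3% of its cells), Il17a (1177 CPM in 46.5%), Trgc1, a constant segment of the gamma chain (1501 CPM in 83.7%), and Scart1, a scavenger receptor gene of gamma-delta T cells (765 CPM in 72.1%). Cxcr6, a chemokine receptor of tissue lymphocytes, and Trdv4 and Blk, a kinase gene of B cells and IL-17-producing gamma-delta T cells, were also among its 10 leading genes.

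The other lymphocyte clusters carried cytotoxic or T cell genes and were left unnamed. Cluster 2, with 15 Lipo-Clo and 20 Lipo-PBS cells, was led by Gzma (4250 CPM), Ccl5, a chemokine of effector lymphocytes (8454 CPM), and Gzmb (1069 CPM). It held both CD3 and NK genes, with a CD3 gene in 29 of 35 cells, the NK receptor gene Klrd1 in 25, Ncr1 in 8 and Cd8a in 6. Cluster 8, with 13 and 12 cells, was led by Gzmc (4535 CPM), Ctsw, a protease gene of cytotoxic lymphocytes (2229 CPM), and Xcl1, a chemokine that attracts dendritic cells (1298 CPM). Areg, which encodes the epithelial growth factor amphiregulin, was at 698 CPM there and in 32.0% of cells. Cluster 6, with 15 and 12 cells, was led by Ifi27l2a, Icos, Il7r and Trac, the last in 40.7% of cells, with Trdc and Gzma at 0 in its 27 cells. Together these 4 clusters held 64 Lipo-Clo members and 66 Lipo-PBS members. Lymphocyte clusters held 62 and 69 at a Leiden resolution of 0.5 and 61 and 69 at 2. With each library clustered on its own they held 49 and 71, so the near equality depended on clustering the libraries together.

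The remaining clusters were uneven between the libraries. Cluster 4, led by the neutrophil granule genes Ngp and Camp with S100a9, had 27 Lipo-Clo and 4 Lipo-PBS cells, and cluster 5, led by Ctsg, Mpo and Prtn3, had 19 and 8. Cluster 3, led by the contractile genes Tagln and Acta2 of perivascular and smooth muscle cells, had 9 and 22 cells, 8 of its 31 being scored as doublets, and cluster 7, led by the haemoglobin genes, had 8 and 18. CD3 was found in 25 of the 31 cells of cluster 3 and 25 of the 26 cells of cluster 7.

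**Figure D3:**
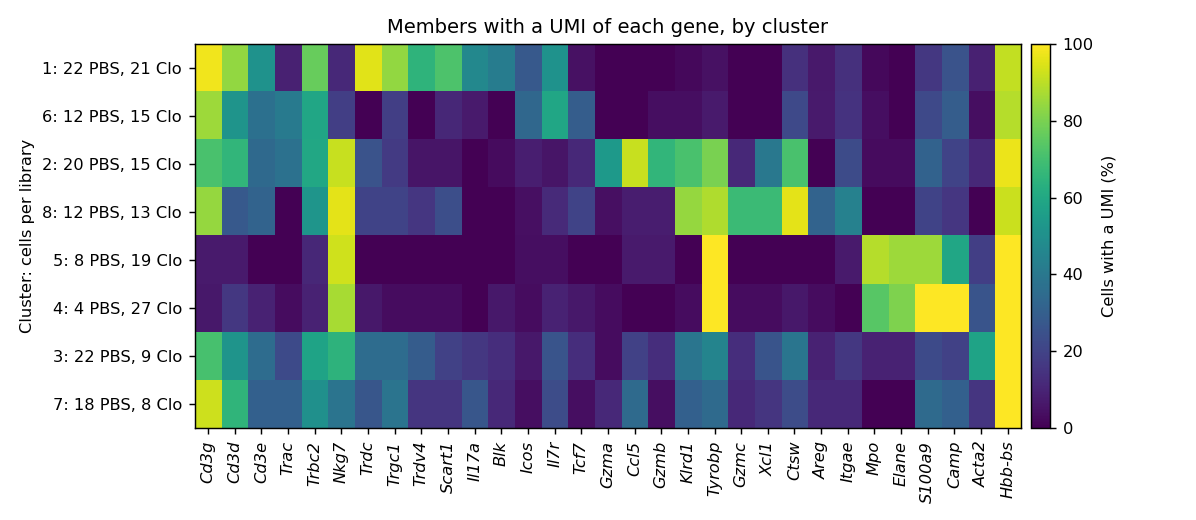
Rows are the 8 clusters with their cells per library, columns are genes, and colour is the percentage of cells with at least 1 UMI. Trdc (95.3%) marks cluster 1, Ccl5 (91.4%) cluster 2 and Gzmc (68%) cluster 8, while S100a9 is found in all 31 cells of cluster 4 and Hbb-bs is widespread in every cluster.

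Promoter sequences are shown for the genes that carried the main distinctions above: Nkg7, a marker that admitted cells with myeloid genes, Il17a of the gamma-delta T-like cluster and Gzma of cluster 2. They come from RefSeq (GRCm38.p6, mouse) and run from 250 bases before to 50 bases after the gene's start, written 5′ to 3′ on the gene's strand. The counts themselves were made on another build, GRCm39 per the submitters' processing notes, so these coordinates belong to the RefSeq table only. Capitals mark the letters TGTGGT or its reverse complement ACCACA, the core of the motif of RUNX factors, which act in T and NK cells. The Nkg7 window is chr7:43436888-43437187 on the plus strand, the Il17a window chr1:20730655-20730954 on the plus strand and the Gzma window chr13:113100932-113101231 on the minus strand.
Nkg7: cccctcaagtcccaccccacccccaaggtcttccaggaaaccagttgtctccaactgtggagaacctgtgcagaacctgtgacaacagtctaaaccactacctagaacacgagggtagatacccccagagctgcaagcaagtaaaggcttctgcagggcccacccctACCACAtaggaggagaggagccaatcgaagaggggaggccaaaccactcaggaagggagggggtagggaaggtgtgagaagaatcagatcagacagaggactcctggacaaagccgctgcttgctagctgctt
Il17a: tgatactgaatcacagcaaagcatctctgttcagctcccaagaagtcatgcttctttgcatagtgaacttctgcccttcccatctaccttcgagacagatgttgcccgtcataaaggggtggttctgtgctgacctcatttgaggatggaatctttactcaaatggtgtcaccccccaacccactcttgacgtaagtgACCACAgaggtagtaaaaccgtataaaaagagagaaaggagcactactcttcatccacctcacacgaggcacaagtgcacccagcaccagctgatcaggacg
Gzma: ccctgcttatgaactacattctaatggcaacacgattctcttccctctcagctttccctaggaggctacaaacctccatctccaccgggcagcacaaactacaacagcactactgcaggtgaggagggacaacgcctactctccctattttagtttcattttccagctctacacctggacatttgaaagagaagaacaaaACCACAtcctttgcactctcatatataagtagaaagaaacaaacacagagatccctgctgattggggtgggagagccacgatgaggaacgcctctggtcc
The RUNX letters lay at position −83 from the start in Nkg7, at −52 in Il17a and at −50 in Gzma. Of 19 gene symbols looked up, 13 had a promoter in the table, and 7 of these held the RUNX letters. They were not found in the windows of Cd3e, Cd3d, Cd3g and Mpo. The RUNX letters occur in 5506 of 32851 promoters of the table (16.8%), on either strand. A match says only that the letters are present.

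CD3 cells with Trdc were found in both libraries at similar shares, and in both they were spread over several clusters. Counting CD3 cells with Trdc whether or not they had Cd4 or Cd8, there were 31 with clodronate and 43 with vehicle, 39.7% and 43.4% of CD3 cells, and their median depths were alike at 1663 and 1669 UMIs. Thinned to 1000 UMIs, the expected shares of CD3 cells with Trdc were 35.6% and 34.0%. Among mesenchymal cells, which should lack these genes, Trdc was found in 0.299% of the Lipo-Clo and 0.591% of the Lipo-PBS cells at median depths of 3494.5 and 3422 UMIs. Those cells were not chosen by T cell UMIs, so they cannot show what free RNA or doublets add to CD3 cells. That part was not tested. Cluster 1, the cluster with Il17a among its leading genes, held 20 of the 31 Trdc cells with clodronate (64.5%, 45.4 to 80.8) and 21 of the 43 with vehicle (48.8%, 33.3 to 64.5), shares whose intervals overlap. The others were in cluster 2 (2 and 6 cells), cluster 3 (4 and 7), cluster 4 (1 and 1), cluster 7 (2 and 5) and cluster 8 (2 and 3).

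For the cytokine and most tissue genes of these cells the pooled ratios had intervals that include 0. Il17a was found in 10 of 31 cells with clodronate (32.3%, 16.7 to 51.4) and 17 of 43 with vehicle (39.5%, 24.98 to 55.6), at 571 and 493 CPM, a log2 ratio of 0.21 (−0.36 to 0.78). By cluster, a split made after the values were seen and on clusters built from these cells' own genes, it was at 900 and 1432 CPM in the Trdc cells of cluster 1 (−0.67, −1.39 to 0.03) and at 375 and 143 CPM in those of the other clusters (1.40, 0.31 to 2.55), there from 3 and 5 cells, so the pooled ratio joins values of opposite sign. Il17a was rarer in the CD3 cells without Trdc, in 3 of 47 and 4 of 56. Cxcr6 was found in 18 and 20 of the Trdc cells, at 325 and 329 CPM, a log2 ratio of −0.02 (−0.77 to 0.72). Maf, a transcription factor needed for IL-17-producing gamma-delta T cells, was in 15 and 21 cells, with a log2 ratio of 0.37 (−0.33 to 1.07). Il23r, a receptor gene for the cytokine that sustains IL-17 production, was in 4 and 11 cells, too sparse for a firm ratio. Scart1 was at 302 and 363 CPM (−0.27, −1.02 to 0.47) and Trgc1 at 862 and 709 CPM (0.28, −0.19 to 0.75). For these genes the intervals include 0 and reach beyond a 1.5-fold difference in at least 1 direction.

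The level of Trdv4 in the Trdc cells differed by more than the counting error. Trdv4, the delta variable segment of the early tissue-resident gamma-delta cells, was found in 11 of 31 cells with clodronate (35.5%, 19.2 to 54.6) and 28 of 43 with vehicle (65.1%, 49.1 to 79.0), shares whose intervals overlap narrowly. Its level was 190 and 554 CPM, a log2 ratio of −1.54 (−2.41 to −0.75), and after thinning to 1000 UMIs it was expected in 20.3% and 42.8% of the cells. In the same split by cluster, Trdv4 was at 360 and 1273 CPM in the Trdc cells of cluster 1 (−1.82, −2.89 to −0.86). In those of the other clusters it was at 89.4 and 285 CPM (−1.67, −3.42 to −0.26), from 5 UMIs in 2 of 11 cells and 24 in 10 of 22. Trdv4 is a leading gene of cluster 1 and the split was made after the values were seen. These ratios are therefore a description and lend the difference no support. Trdc itself, which defined the group, was at 1333 and 934 CPM. Trdv4 was also lower in Lipo-Clo in the kept cells that were not members, at 0.277 and 1.14 CPM, and its part in the difference was not tested. Trgv6, a gamma segment that pairs with Trdv4, was found in 6 and 10 of the Trdc cells, a log2 ratio of −0.21 (−1.71 to 1.20).

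Blk was at 213 and 95.2 CPM in the Trdc cells, from 19 and 11 UMIs, a log2 ratio of 1.16 whose interval came close to 0 (0.02 to 2.38). It was found in 38.7% of them with clodronate (21.9 to 57.8) and 23.3% with vehicle (11.8 to 38.6), intervals that overlap. After thinning to 1000 UMIs it was expected in 19.8% of 28 and 15.98% of 38 cells, so no difference in Blk is called. Itgae, which encodes the CD103 integrin that binds epithelial E-cadherin, was in 3 and 15 cells, at 56.0 and 147 CPM, and its interval reached past 0 (−1.39, −3.19 to 0.10).

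**Figure D4:**
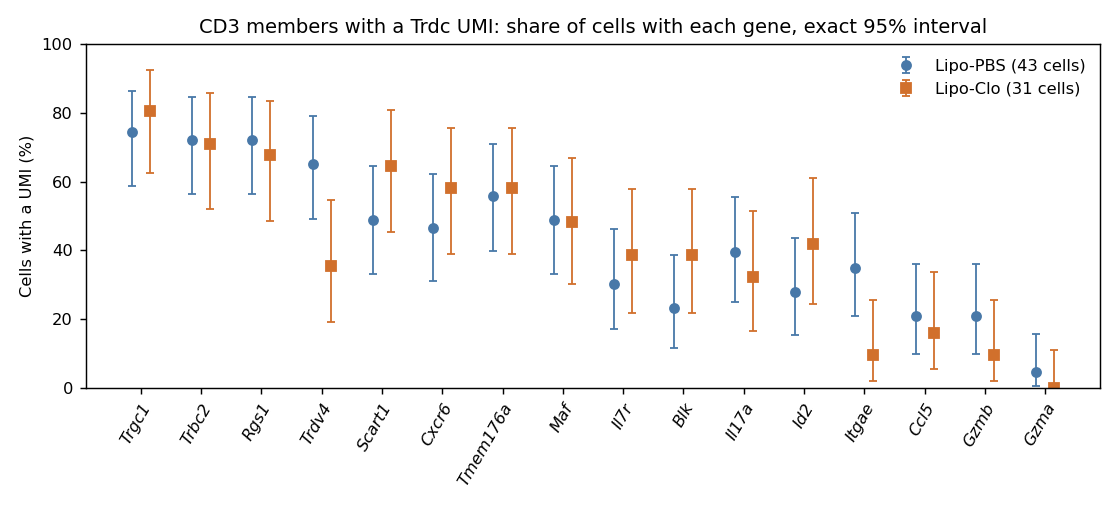
For CD3 cells with Trdc, the share of cells with at least 1 UMI of each gene is drawn in percent for Lipo-Clo (31 cells) and Lipo-PBS (43 cells), with exact 95% intervals. Trdv4 (35.5% and 65.1%) is lower in Lipo-Clo, with intervals that overlap narrowly (19.2 to 54.6 and 49.1 to 79.0). Il17a (32.3% and 39.5%) and Cxcr6 (58.1% and 46.5%) have intervals that overlap widely.

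CD3 cells without Trdc numbered 47 with clodronate and 56 with vehicle, at median depths of 1968 and 2531 UMIs, and cytotoxic genes were read in CD3 cells both with and without Trdc. Gzmb was at 186 and 310 CPM without Trdc (log2 ratio −0.73, −1.42 to −0.07) and at 123 and 372 CPM with it (−1.59, −2.70 to −0.61). Ctsw was also lower in Lipo-Clo without Trdc, at 360 and 582 CPM (−0.69, −1.18 to −0.22). In the cells without Trdc, Nkg7 was found in 25 of 47 and 32 of 56 and Klrd1 in 17 and 22. Gzma was in 5 and 10 cells and at 901 and 1121 CPM, a log2 ratio of −0.31 (−0.63 to −0.0025), but 100 of the 145 Lipo-Clo UMIs came from 1 cell. Gzmc was in 7 and 12 cells, with 143 UMIs in each library. Ccl5 was in 14 and 16 cells and at 1603 and 2380 CPM, a log2 ratio of −0.57 (−0.80 to −0.35). Ifng, the cytokine interferon-gamma, was in 5 cells of each library. UMIs of such genes arrive many to a cell, so their counting intervals are narrower than the spread between cells.

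Other genes in the CD3 cells without Trdc differed more between the libraries. Trbc1, a constant beta segment, was at 379 against 144 CPM (log2 ratio 1.40, 0.72 to 2.11). Cd2, an adhesion receptor of T and NK cells, was at 224 and 101 CPM (1.14, 0.30 to 2.03). Ltb, which encodes lymphotoxin beta, was at 255 and 123 CPM (1.05, 0.28 to 1.86). Id3, an inhibitor of E proteins that is also expressed in mesenchyme, was lower, at 205 and 833 CPM (−2.02, −2.61 to −1.47), and its highest Lipo-PBS cell had 34 of 156 UMIs.

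Over all members, summed per library, genes were named by the size of their ratio, mitochondrial and haemoglobin genes left out. Of 3072 genes with at least 50 UMIs, 259 (8.43%) were higher in Lipo-Clo by 2-fold or more and 553 (18%) were lower, and thinning the members to 1000 UMIs turned this into 381 and 462. The 10 named higher genes were Stfa2, Stfa3, Stfa1, Lcn2, Chil3, Hp, Lrg1, Slpi, Lbp and 1700034P13Rik, of which Lcn2 is on the neutrophil list. Lcn2, the iron-chelating lipocalin of neutrophil granules, was at 1108 against 147 CPM (log2 ratio 2.91, 2.54 to 3.31). It was likewise higher in the other kept cells, with a log2 ratio of 2.54. The 10 named lower genes were Ccl21a (0 UMIs in Lipo-Clo and 119 in Lipo-PBS), Gm17660, Amtn, Odam, Ambn, Fbn1, Col14a1, Clu, Emp1 and Prss23, of which Odam and Ambn, genes of enamel epithelium, are on the epithelial list. Odam was at 95.1 and 1543 CPM, a log2 ratio of −4.02 (−4.37 to −3.69), although in the other kept cells it was higher in Lipo-Clo (1.18). Its ratio shrank to −1.95 by the mean over scaled cells and −2.46 after thinning. More Lipo-Clo members had it, 51 against 32 in Lipo-PBS, so the size of the summed ratio depends on how cells are weighted. No marker of lymphocytes was among the genes so named.

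Restricting the comparison to CD3 cells lowered the counts, and leaving out CD3 cells with over 2% of UMIs from other lineages lowered them further. With CD3, 57 of 1530 genes (3.73%) were higher by 2-fold or more in Lipo-Clo and 124 (8.1%) lower. In the 55 Lipo-Clo and 67 Lipo-PBS cells with CD3 and at most 2% of UMIs from other lineages, called clean CD3 cells below, 9 of 761 genes (1.18%) were higher and 31 (4.07%) lower. These cells held 116508 and 138575 UMIs. The fewer genes reach 50 UMIs, the fewer can be counted, and the median log2 ratio over the genes used was −0.03, 0.12 and 0.09 in the 3 sets.

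Several lymphocyte genes outside the rule had ratios near 0 in the clean CD3 cells, and Trdv4 did not. Il17a was at 378 and 375 CPM (log2 ratio 0.01, −0.60 to 0.62) and Il7r, the IL-7 receptor gene, at 326 and 325 CPM (0.01, −0.66 to 0.66). Cxcr6 was at 300.4 and 332 CPM (−0.14, −0.82 to 0.52), which leaves room for a difference in either direction. Gzma was at 1245 and 1487 CPM, but in 5 of 55 and 10 of 67 cells and with 100 of its 145 Lipo-Clo UMIs in 1 cell, so its ratio is not read. Trdv4 was past 2-fold lower, at 120 and 310 CPM (−1.37, −2.35 to −0.47), with 14 UMIs in 10 of 55 cells and 43 in 20 of 67. The 10 gamma-delta markers, Trdv4 among them, summed to 2515 and 2533 CPM, with a median log2 ratio of −0.22 over the 6 that were measured. The 10 NK markers summed to 3090 and 3832 CPM, a log2 ratio of −0.31 (−0.51 to −0.11), and Gzma with its 1 high cell is among them.

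Among the 31 lower genes, 9 were mitochondrial, and the others included signalling and effector genes. The mitochondrial gene mt-Co1 was at 627 against 2980 CPM (−2.25, −2.63 to −1.89), and in the other kept cells the same gene had a log2 ratio of −2.46. Ccl5 was at 1691 and 4178 CPM (−1.31, −1.55 to −1.07), found in 12 of 55 and 18 of 67 cells, while in the other kept cells it was higher in Lipo-Clo (0.59). The 3 highest cells of each library held 135 of its 197 Lipo-Clo and 249 of its 579 Lipo-PBS UMIs, so its interval is narrower than the spread between cells. Ikzf3, the lymphoid factor Aiolos, was at 120 and 267 CPM (−1.15, −2.15 to −0.23), Jak1, a kinase of cytokine receptors, at 197 and 433 CPM (−1.13, −1.89 to −0.42) and Nfkb1 at 137 and 303 CPM (−1.14, −2.07 to −0.28). In the other kept cells Jak1 had the same sign (−0.48). Rgs5, a pericyte gene, and Lyz2, a myeloid gene, were also among the 31, from 4 and 3 Lipo-PBS cells, so RNA of other lineages was still present. It lay in both directions. Neutrophil genes summed to 644 and 130 CPM (2.31, 1.55 to 3.14) and progenitor genes to 77.2 and 14.4 CPM, the latter from 9 and 2 UMIs. Perivascular genes summed to 60.1 and 729 CPM (−3.60, −4.95 to −2.51) and mesenchymal genes to 2189 and 3175 CPM (−0.54, −0.77 to −0.31). Their part in the genes past 2-fold was not tested.

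Of the 9 higher genes, some were carried by 1 cell. Mt2, a metallothionein, had 53 against 6 UMIs, but 45 of the 53 were in 1 cell, and Mt1 had 49 of its 59 in 1 cell. In all CD3 cells without Trdc the direction of Mt2 was the opposite, at 15 and 110 UMIs (−2.65, −3.54 to −1.87), with 51 of the 110 in 1 cell. Areg had 36 and 19 UMIs (1.17, 0.33 to 2.06), 17 of the 36 from 1 cell. Id2, a regulator of innate-like and cytotoxic lymphocytes, was more evenly spread, in 24 of 55 and 18 of 67 cells and at 326 and 159 CPM (1.04, 0.24 to 1.87). Cd37, a leukocyte tetraspanin, was in 24 and 16 cells and at 283 and 130 CPM (1.12, 0.25 to 2.04).

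**Figure D5:**
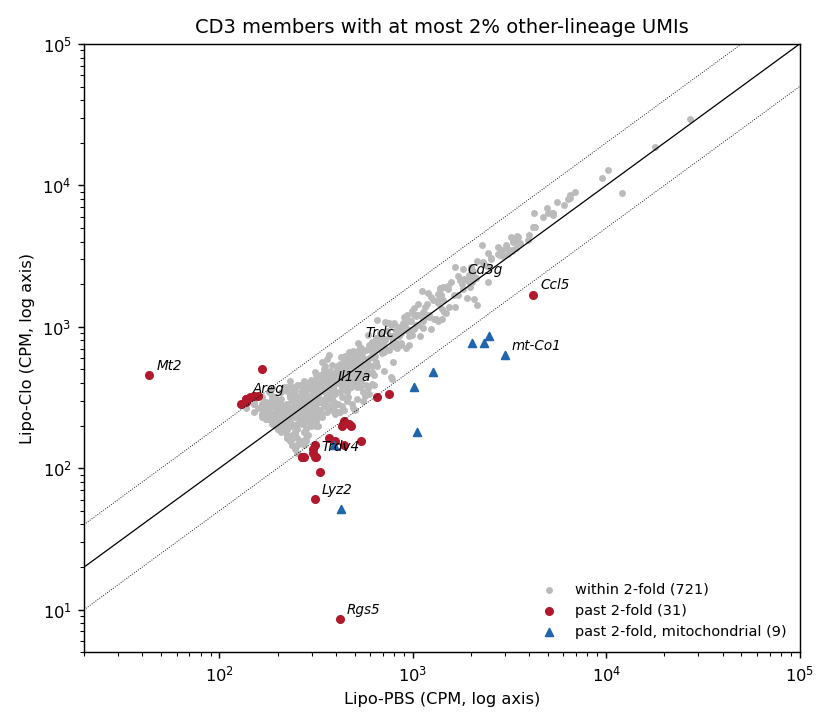
For clean CD3 cells, each gene's CPM in Lipo-PBS is on the x axis and in Lipo-Clo on the y axis, both on log scales, with genes past 2-fold marked. Most of the 761 genes lie between the 2-fold lines, and the 9 mitochondrial genes among the 31 lower ones include mt-Co1 at 2980 and 627 CPM.

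The medians of the function lists depended on which cells were counted. Over all members none of the 12 lists had a median log2 ratio above 0, and in the clean CD3 cells 3 of the 11 lists with measured genes did. Of all genes used, 18% were past 2-fold lower in all members and 4.07% in clean CD3 cells, and 8.43% and 1.18% were past 2-fold higher. For T cell receptor signalling the median was −1.25 over 11 genes in all members, 8 of them past 2-fold lower. In clean CD3 cells it was −0.11 over 5 genes, 1 of them past 2-fold lower. In the latter Ptprc, the CD45 phosphatase gene, was at −0.39 and Skap1, an adapter of T cell adhesion, at −0.11. Cytotoxic and effector genes had medians of −0.92 over 13 genes and −0.26 over 9, and in clean cells Ccl5 was past 2-fold lower, Id2 past 2-fold higher, and Srgn, the granule proteoglycan, at 0.06. Trafficking receptors had medians of −1.36 over 9 genes and −0.33 over 3, with Itgb1, the beta-1 integrin, at −1.09 (−1.99 to −0.25) in clean cells. Lineage transcription factors had medians of −1.28 over 14 genes and −0.52 over 6, with Ikzf3 lower and Id2 higher past 2-fold.

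The cytokine lists moved with the cells counted as well. Cytokines of lymphocytes had a median of −0.56 over 6 genes in all members (0.06 by the mean over scaled cells) and 0.30 over 4 in clean CD3 cells, all 4 above 0, with Areg past 2-fold. Cytokine receptors had medians of −1.18 over 6 genes and 0.01 over 3. Costimulation and checkpoint receptors were measured for only 2 of 12 genes in all members, with a median of −0.97, and for none in clean cells. Interferon-responsive genes had a median of −0.99 over 5 genes in all members, which turned to 0.021 by the mean over scaled cells and 0.27 after thinning, and −0.28 over 2 genes in clean cells. Class I presentation had −0.15 over 9 genes and 0.11 over 6, none past 2-fold in clean cells, with B2m, the shared light chain of class I molecules, at 1442 and 1191 CPM there (0.28, −0.04 to 0.59).

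Stress and mitochondrial genes completed the lists, beside shares of 18% of all genes past 2-fold lower in all members and 4.07% in clean CD3 cells. Immediate early and heat shock genes, which also respond to tissue digestion, had a median of −1.10 over 19 genes in all members, 12 past 2-fold lower, and −0.12 over 15 in clean CD3 cells, 1 past 2-fold. That gene was Fos, at 318 and 657 CPM (−1.05, −1.64 to −0.48), while Jund was higher at 1777 and 1111 CPM (0.68, 0.37 to 0.99) and Junb at 1596 and 1905 CPM (−0.25, −0.53 to 0.02). TGF-beta response genes had medians of −1.73 over 7 genes and −0.22 over 2. The 12 measured mitochondrial genes had a median of −2.79 in all members and 9 of them −1.53 in clean CD3 cells, every one past 2-fold lower, beside a median of −2.16 for the 12 in the other kept cells. The depth of 122 clean CD3 cells leaves most genes of these lists below 50 UMIs, so differences in them were not detectable here.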

How the data were processed

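Per the labels, single cells of PN15.5 mandibular first molars with surrounding tissue were profiled by 10x Genomics, 1 library per condition. The authors deposited whole-number UMI counts for 34285 genes per cell. The submitters' processing notes name Cell Ranger 3.1.0, Seurat 3.1.1 and GRCm39, whereas the matrix header names Cell Ranger 8.0.0, and the cell filters applied before deposit were not tested here. From the counts, members were selected by the stated rule, summed per library and compared as log2 ratios of CPM for genes with at least 50 UMIs over both libraries, past 2-fold by size alone. Shares have Clopper-Pearson intervals and ratios exact conditional Poisson intervals. The 6 Lipo-Clo and 9 Lipo-PBS members that Scrublet scored as doublets were kept. Its automatic threshold called 0 and 1 cells, so the highest scores were called instead, at 0.8% per 1000 cells. Clusters were made with scanpy 1.11.5 and leidenalg 0.10.2. Function and marker lists held 339 genes, all of which matched, 5 by a newer symbol. The members, lists and gates were chosen with earlier results of these data known. Named were the rule markers, list markers, up to 4 genes per function list with the most UMIs or past 2-fold, and, for either direction, the 10 largest ratios that kept their sign over scaled and thinned cells, without mitochondrial and haemoglobin genes. Leading genes of clusters, genes of the Trdc cells and genes past 2-fold in clean CD3 cells were named after their values were seen, as was the limit of 2% for other lineages. Alternatives changed the rule, cell filter, depth, gate, scaling (edgeR 4.0.16, DESeq2 1.42.0), minimum count and fold. Some genes are not reported here. The scripts were tested on simulated data.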

Additional observations from a re-analysis of the deposited data

How the results depend on the processing

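No paired analysis was possible because the labels give 1 library for either condition. The share of members, log2 ratio 0.11, became −0.46 with at least 2 different markers (67 and 92 cells), −0.31 with at least 2 UMIs of the 4 markers other than Nkg7 (76 and 94), −0.39 as a share of cells with Ptprc and −0.28 for clean CD3 cells, while 7 other alternatives moved it by less than its interval. Members with CD3, 61.4% in Lipo-Clo and 83.9% in Lipo-PBS, came to an expected 48.2% and 64.9% after thinning to 1000 UMIs and to 90.2% and 94.4% without members over 2% of UMIs from other lineages. A gate of at least 2 UMIs gave 72.9% for CD3 in Lipo-PBS and 27.9% for Trdc among its CD3 cells, down from 43.4% for Trdc. The Lipo-Clo share for Trdc among CD3 cells stayed within its main interval of 28.8 to 51.5% under that gate. The libraries are not compared under it. Genes higher past 2-fold, 259 over all members, were 461 with a minimum of 20 UMIs, 155 with 100, 873 with no minimum beyond 1 UMI in each library, 57 with CD3, 9 without members over 2% of other lineages, 9 in clean CD3 cells and 622 at 1.5-fold. Genes lower past 2-fold, 553, were 1641, 204, 4885, 124, 32, 31 and 911 under the same alternatives and 319 by the mean over scaled cells. TMM factors (288 higher, 519 lower) and DESeq2 size factors (286 and 520) kept both counts within 1.5 times. No function list had a median above 0 over all members, against 2 by the mean over scaled cells, 1 after thinning, 3 with CD3, 2 without members over 2% of other lineages and 3 in clean CD3 cells. Medians turned above 0 for costimulation receptors with CD3 (0.15), cytokine receptors in clean CD3 cells (0.0063), interferon-responsive genes by the mean over scaled cells (0.021) and after thinning (0.27), cytokines by the mean over scaled cells (0.06), with CD3 (0.28), without members over 2% of other lineages (0.31) and in clean CD3 cells (0.30), and class I presentation in the last 3 settings (0.23, 0.15 and 0.11). The cause of these moves was not tested. With 1 library per condition and 78 and 99 CD3 cells, depth and cell number limit the precision of each ratio for these lymphocytes.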

Other observations

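Cycling genes were compared in the members as a group that the report does not describe. Over all members the 8 cycling genes summed to 4608 against 2326 CPM (Lipo-Clo against Lipo-PBS), a log2 ratio of 0.99 (0.88 to 1.09). Mki67, a marker of proliferating cells, was found in 19 of the 41 Lipo-Clo cells with Nkg7 alone and in 3 of the 12 in Lipo-PBS, and in 9 of 78 and 8 of 99 CD3 cells. In clean CD3 cells the list summed to 3407 and 2490 CPM, a log2 ratio of 0.45 (0.24 to 0.67). Neutrophil and progenitor genes were also higher in Lipo-Clo in those cells, and their part in this ratio was not tested. Innate lymphoid cell markers, 9 genes, summed to 936 and 989 CPM in the clean CD3 cells (−0.08, −0.46 to 0.29), and naive T cell markers, 7 genes, to 524 and 455 CPM (0.20, −0.33 to 0.73). B cells, with at least 2 UMIs of Cd79a plus Cd79b, numbered 602 and 371 of the kept cells, a log2 ratio of 0.70 (0.51 to 0.89). The ratio of CD3 cells had the opposite sign, at −0.34 (−0.79 to 0.10), and the difference between these ratios was not tested.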
